A study of Mus musculus with 19 samples.

Results

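Cd5 (ENSMUSG00000024669) and Cd6 (ENSMUSG00000024670) encode a pair of surface receptors of T cells, and CD5 was also measured as a protein with an oligonucleotide-tagged antibody (clone 53-7.3). The members were picked by name: 2 of the 28692 genes and 1 of the 111 antibodies counted in single thymocytes with CITE-seq, a droplet assay that counts transcripts and antibody tags of 1 cell together. The data came from the thymi of 17 mice aged 4 to 8 weeks. CD4-fated mice make T cells restricted by MHC class II (MHCII) and were AND and OT-II TCR-transgenic (TCRtg) mice and MHCI-/- (B2m-/-) mice. CD8-fated mice make T cells restricted by MHCI and were F5 and OT-I TCRtg mice and MHCII-/- (H2-Ab1-/-) mice. There were 2 mice of each of these genotypes and 5 wild-type (B6) mice. AND and F5 mice lacked Rag1, so the transgene supplied their only rearranged αβ TCR, whereas OT-I and OT-II mice kept Rag and could rearrange endogenous chains. The F5 transgene was driven by CD2 control elements. The MHC-deficient mice carried diverse TCRs.

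A sort stood before part of the measurement and used one of the members. Thymocytes of the MHCI-/- mice, the MHCII-/- mice and wild-type mice 1 to 3 were sorted as CD5+TCRβ+, whereas the TCRtg mice and wild-type mice 4 and 5 were not sorted. The fluorophore was carried by an oligonucleotide that pairs with the barcode of the CD5 antibody, and its effect on the CD5 count was not tested. The mice fell into 3 experiments, with both OT genotypes and the unsorted wild-type mice in one of them. A CD4-fated and a CD8-fated genotype of 1 family (AND and F5, MHCI-/- and MHCII-/-, OT-II and OT-I) shared experiment and sort, mouse by mouse for AND and F5, whose numbers 1 and 2 mark different experiments. Families could not be told apart from experiment and sort.

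CD5 and CD6 belong to the scavenger receptor cysteine-rich family and sit close to the TCR on the T cell surface. CD5 is set by the strength of TCR signals during positive selection, restrains TCR signaling through partners such as SHP-1 (Ptpn6), Cbl family ligases, RasGAP (Rasa1) and casein kinase 2, and is widely read as a gauge of self-reactivity. CD6 binds CD166 (Alcam) and CD318 (Cdcp1) and recruits adaptors such as SLP-76 (Lcp2) and TSAd (Sh2d2a). In the thymus, CD4+CD8+ double-positive (DP) cells whose TCR binds self-peptide on MHC gain CD69, pass through a CD4+CD8lo stage and become CD4+ or CD8+ single-positive (SP) cells.

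Both genes lie on the minus strand of chromosome 19 in GRCm38 (GENCODE vM21). Cd5 spans chr19:10717116-10739002 (21887 bases) and Cd6 spans chr19:10789341-10830058 (40718 bases), with 50338 bases between them. The 250 bases before the RefSeq start of Cd5, which lies inside the GENCODE span so that the window overlaps its first bases, are shown because Cd5 RNA is the readout on which the comparisons turn (RefSeq, GRCm38.p6, chr19:10738975-10739224, minus strand, 5′ to 3′). Capitals mark 2 matches of the ETS core AGGAAG, 109 and 52 bases before the RefSeq start, and 2 matches of the E-box CANNTG, 174 (CACCTG) and 69 (CAGGTG) bases before it.

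Cd5 upstream: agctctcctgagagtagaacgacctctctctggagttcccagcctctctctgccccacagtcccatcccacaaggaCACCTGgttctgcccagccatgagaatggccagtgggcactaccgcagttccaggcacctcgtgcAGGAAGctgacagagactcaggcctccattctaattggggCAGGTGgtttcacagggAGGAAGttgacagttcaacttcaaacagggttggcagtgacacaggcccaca

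Both strands were searched and no match overlapped another. Of 32851 promoters of the same length in the RefSeq set, 29.5% held an AGGAAG and 6.25% held at least 2, whereas 66.2% held a CANNTG and 31.8% held at least 2. The matches are letters in a window and not measured sites.

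The 19 lanes (wild-type mice 4 and 5 had 2 each) held 85389 cell barcodes, of which 69049 were kept, and 647 of 68398 distinct barcode sequences occurred in at least 2 lanes. Lanes held 9893333 to 43303999 RNA UMIs, with medians of 1497.5 to 7173.5 RNA UMIs per kept cell. The lane of AND mouse 2 stood apart with a median of 1099 antibody UMIs, and wild-type mouse 5, OT-I mouse 2 and OT-II mouse 2 were shallower than the other mouse of their group. Cells were placed in 8 gates by surface CD4, CD8 and CD69: double negative (DN), DP CD69-, DP CD69+, CD4+CD8lo, and CD4 or CD8 SP cells with or without CD69. The CD4+CD8lo and SP gates also required surface TCRβ above a threshold, and the DN and DP gates did not. The RNA of the wild-type gates followed their labels, with a mean of 1028 CPM of Rag1 in DP CD69- cells, 87.6 CPM of the CD4 lineage factor Zbtb7b in CD4 SP CD69+ cells against 1.17 CPM in CD8 SP CD69+ cells, and 299 CPM of the CD8 lineage factor Runx3 in CD8 SP CD69- cells. The DN gate was mixed, with the myeloid gene Lyz2 at 132 CPM and the B cell gene Cd79a at 43.0 CPM. UMIs were summed per mouse and gate, and RNA levels are given as UMIs per 1000000 RNA UMIs (CPM) and CD5 protein as UMIs per 10000 UMIs of all 111 antibodies.

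The first question was how the members move along the stages of wild-type mice. Cd5 RNA in DP CD69- cells was 417, 380 and 249 CPM in wild-type mice 1, 2 and 3, which were sorted, and 82.6 and 75.3 CPM in mice 4 and 5. In DP CD69+ cells it was 756, 651, 572, 548 and 407 CPM in mice 1 to 5. Every mouse was higher in the CD69+ gate, and the unsorted mice differed between gates by 5.40- to 6.63-fold against 1.71- to 2.30-fold in the sorted mice. The log2 fold change was 1.45 ± 0.20 (SE, 5 mice with the mouse as a block, edgeR quasi-likelihood test, adjusted p = 2.72e-07), in a comparison in which 41% of 9585 genes were called at an adjusted p under 0.05. Cd6 RNA also rose, from 245, 214, 149, 103 and 150 CPM in DP CD69- cells to 366, 343, 282, 254 and 342 CPM in DP CD69+ cells of mice 1 to 5. The sorted and unsorted mice lay closer together for Cd6 than for Cd5, with ratios of 1.49 to 1.90 and 2.28 to 2.46. The log2 fold change of Cd6 was 0.91 ± 0.11 (adjusted p = 8.15e-09).

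CD5 protein rose with the RNA at this step. It was 1594, 1421, 1150, 340 and 378 per 10000 antibody UMIs in DP CD69- cells and 2427, 2013, 2068, 1069 and 1223 in DP CD69+ cells of mice 1 to 5, a log2 fold change of 0.95 ± 0.26 (adjusted p = 0.0081, 18.9% of 111 antibodies called). In DP CD69- cells the unsorted mice lay far below the sorted mice, whose cells had been chosen for CD5. RNA clusters led by genes of quiescent DP cells, such as Rag1 and Arpp21, held 73.6% and 72.1% of the cells in this gate in the unsorted and 28.4%, 18.9% and 11.8% in the sorted wild-type mice, with clusters not integrated across lanes. The part of this make-up in the Cd5 values was not tested.

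RNA and protein parted at the next step. From DP CD69+ to CD4+CD8lo cells Cd5 RNA fell in 5 of 5 mice, to 331, 293, 304, 352 and 247 CPM (log2 fold change −0.85 ± 0.23, adjusted p = 0.0177, 5.83% of genes called). The call was lost without wild-type mouse 1 (adjusted p = 0.0772), 2 (0.0614) or 3 (0.0627), and the log2 fold change was between −1.0 and −0.77 over all mice left out in turn. Cd6 RNA fell in 5 of 5 mice, to 172, 147, 137, 165 and 273 CPM (−0.75 ± 0.13, adjusted p = 0.000241). In the 2 unsorted mice alone the Cd6 value was −0.41 and did not pass (adjusted p = 0.0652). CD5 protein did not follow. It was 2393, 1929, 2155, 1523 and 1777 per 10000, higher than in DP CD69+ cells in 3 of 5 mice, with a log2 fold change of 0.19 ± 0.26 (adjusted p = 0.689, 7.21% of antibodies called). The unsorted mice alone gave 0.65 (adjusted p = 0.000886), and the difference between sorted and unsorted mice was not tested.

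Along the CD4 branch the levels of both RNAs were flatter. CD4 SP CD69+ cells held 399, 362, 345, 321 and 273 CPM of Cd5 RNA and 248, 237, 220, 182 and 291 CPM of Cd6 RNA in mice 1 to 5. Against CD4+CD8lo cells, Cd6 rose by a log2 fold change of 0.51 ± 0.13 (adjusted p = 0.00704, 9.81% of genes called), and Cd5 had 0.26 ± 0.23 (adjusted p = 0.544). The Cd6 call was lost without wild-type mouse 2 (adjusted p = 0.0797) or 3 (0.0524), by library size (0.36, adjusted p = 0.0578) and in the unsorted mice alone (0.26, adjusted p = 0.342). CD5 protein was higher than in CD4+CD8lo cells in 5 of 5 mice, by 1.20- to 1.24-fold, but did not pass the test (0.35 ± 0.26, adjusted p = 0.545, 13.5% of antibodies called). The mean of these ratios was 1.22 ± 0.0173 (SD, n = 5). In this and the other protein tests the SE and p draw on a spread fitted over all antibodies. They do not measure the spread of CD5 between mice alone. From CD69+ to CD69- CD4 SP cells no member passed. Cd5 had −0.29 ± 0.21 (adjusted p = 0.411, 16.2% of genes called) and Cd6 −0.16 (adjusted p = 0.387), and CD5 protein had −0.23 (adjusted p = 0.634, 21.6% of antibodies called).

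The CD8 branch was set apart by less CD5 protein. CD8 SP CD69+ cells held 1306, 889, 1142, 899 and 914 per 10000, 0.461- to 0.590-fold of the CD4+CD8lo value of the same mouse, and the ranges of the gates did not overlap. The log2 fold change was −0.86 ± 0.26 (adjusted p = 0.0113, 23.4% of antibodies called), and the call was lost without wild-type mouse 3 (−0.78, adjusted p = 0.0797) and without protein filters (−0.68, adjusted p = 0.0651). Cd5 RNA was 263, 221, 263, 188 and 163 CPM and Cd6 RNA 203, 205, 195, 151 and 191 CPM in these cells. Neither RNA passed against CD4+CD8lo cells (Cd5 −0.34 ± 0.25, adjusted p = 0.396, Cd6 0.26 ± 0.14, adjusted p = 0.238, 17.5% of genes called). The Cd6 value depended on the mice used, with 0.62 in the sorted mice (adjusted p = 0.00125), −0.12 in the unsorted mice (adjusted p = 0.710) and 0.39 over all 17 mice (adjusted p = 0.0178), and Cd5 passed in the unsorted mice alone (−0.61, adjusted p = 0.00757). Cd5 and Cd6 had log2 fold changes of −0.65 ± 0.26 and −0.41 ± 0.14 from CD69+ to CD69- CD8 SP cells (adjusted p = 0.193 and 0.0862, 4.07% of genes called), and CD5 protein had −0.15 (adjusted p = 0.855, 18.9% of antibodies called).

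Mature CD4 SP cells of wild-type mice exceeded mature CD8 SP cells in all 3 members. In CD69- cells of mice 1 to 5, CD5 protein was 2645, 2025, 2258, 1900 and 1816 per 10000 on CD4 SP cells and 1250, 766, 983, 872 and 938 on CD8 SP cells. The lowest CD4 SP value lay above the highest CD8 SP value, with a mean ratio of 2.23 ± 0.263 (SD, n = 5) and a log2 fold change of 1.13 ± 0.26 (adjusted p = 0.00148, 23.4% of antibodies called). Because CD5 took up to 2961 of 10000 antibody UMIs, its share understates differences, and per 10000 UMIs of the other 110 antibodies the ratio was 2.57. Cd5 RNA was 313, 277, 277, 253 and 176 CPM in CD4 SP and 225, 101, 149, 108 and 106 CPM in CD8 SP cells (0.97 ± 0.24, adjusted p = 0.00411, 14.3% of genes called). The RNA groups overlapped across mice but not within a mouse. Cd6 RNA was 214, 204, 171, 167 and 199 CPM against 131, 140, 124, 111 and 178 CPM (0.51 ± 0.13, adjusted p = 0.00422). The Cd6 call was lost in the unsorted mice alone (0.44, adjusted p = 0.139) and when the gates were compared over all 17 mice (0.11, adjusted p = 0.524).

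Ranked by the median of the 5 wild-type mice, Cd5 RNA was highest in DP CD69+ cells (572 CPM), followed by CD4 SP CD69+ (345), CD4+CD8lo (304), CD4 SP CD69- (277), DP CD69- (249), CD8 SP CD69+ (221), CD8 SP CD69- (108) and DN cells (96.4). DP CD69+ cells did not overlap with the next gate, and every other pair of neighbours in this order overlapped between mice. Cd6 RNA had the same top and bottom, with medians from 342 CPM in DP CD69+ to 68.5 CPM in DN cells, and all neighbours overlapped except CD8 SP CD69- (111 to 178 CPM) and DN cells (22.4 to 89.4 CPM). CD5 protein had another order, with CD4 SP CD69+ cells first (2326 per 10000) and both CD8 SP gates last (938 without and 914 with CD69). The low end of these orders rested on the sorted mice. In the unsorted mice CD5 protein was 340 and 378 per 10000 in DP CD69- and 345 and 313 in DN cells, below the 872 to 938 of both CD8 SP gates, and Cd5 RNA in DP CD69- cells (82.6 and 75.3 CPM) lay below that of both CD8 SP gates (106 to 188 CPM).

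**Figure D1:**
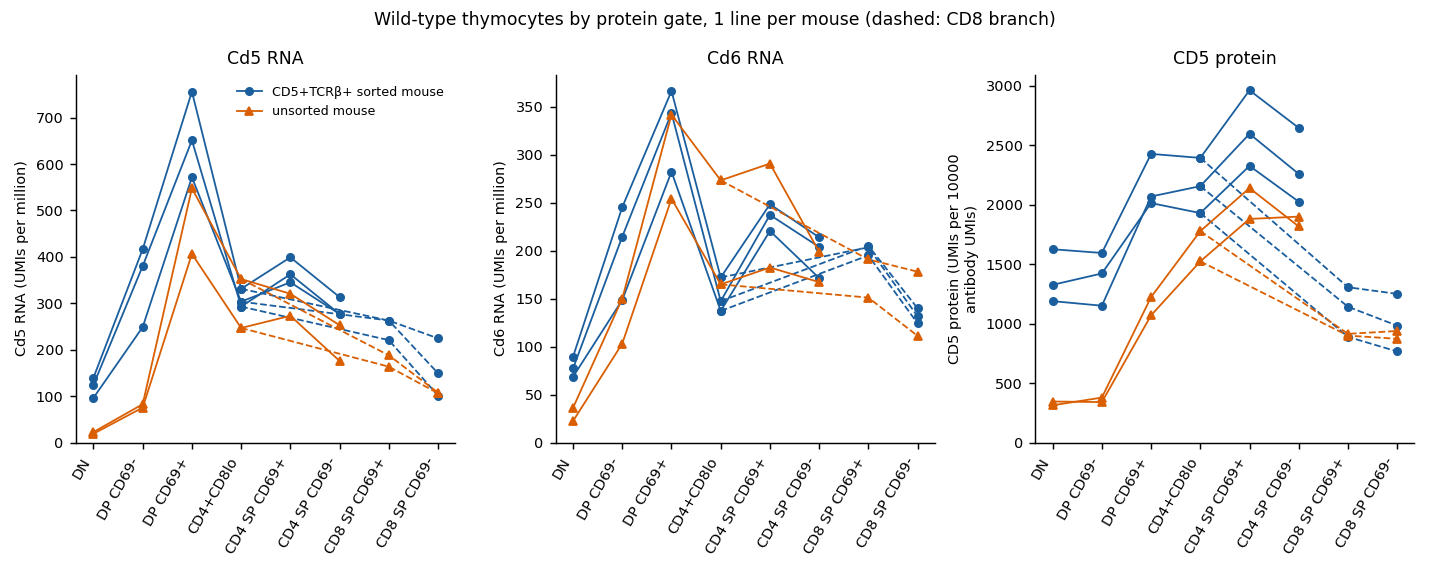
Levels of Cd5 RNA (CPM), Cd6 RNA (CPM) and CD5 protein (per 10000 antibody UMIs) in the protein gates of wild-type mice, with 1 line per mouse, blue circles for the 3 sorted and orange triangles for the 2 unsorted mice, and dashed lines for the CD8 branch. Both RNAs peak in DP CD69+ cells, whereas CD5 protein stays high in CD4 SP cells and is lower in CD8 SP cells.

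The genes around the receptors were counted for the same steps. Of 20 signaling partners and ligands of CD5 and CD6, 18 were tested in the wild-type stages, and Alcam and Cdcp1, the ligands of CD6, were not, because they failed the filter on low counts. From DP CD69- to DP CD69+ cells, where 41% of all genes were called, 9 partners were called higher and 3 lower, with a median log2 fold change of 0.28 against 0.01 over all genes. Those higher included the kinases Fyn (1.02) and Zap70 (0.73), the phosphatase gene Ptpn6 (0.79), the CD6 adaptor genes Sh2d2a (0.72) and Lcp2 (0.36), Csk (0.63), Ubash3a (0.56), Cblb (0.55) and Sdcbp (0.32), and those lower were the ligase Cbl (−0.50), the kinase Lck (−0.42) and the casein kinase subunit Csnk2b (−0.17). Of 24 genes that respond to TCR signals, 23 were tested, 22 were called higher and 1, Slamf6, lower (−0.76), with a median of 1.92. Their largest changes were those of Tnfrsf9 (4.67), Nr4a3 (4.51), Nr4a1 (3.13), Izumo1r (3.13) and Pdcd1 (2.80). CD69 set these gates, so the change of Cd69 (2.36) was built in, and Cd28, Gata3, Id3 and Lef1 had been linked to Cd5 in these samples by the study.

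At later steps most of the TCR response genes that were called were lower. Of the 23 tested, 1 was called higher and 5 lower from DP CD69+ to CD4+CD8lo cells (5.83% of all genes called), 1 higher and 6 lower from there to CD4 SP CD69+ cells (9.81%), and 1 higher and 15 lower from CD69+ to CD69- CD4 SP cells (16.2%), with medians of −0.34, −0.40 and −0.64. On the CD8 branch the counts were 1 higher and 8 lower from CD4+CD8lo to CD8 SP CD69+ cells (17.5% of all genes called), where Itm2a (−3.18), Gata3 (−2.65) and Cd28 (−1.70) fell furthest, and 0 higher and 8 lower from CD69+ to CD69- CD8 SP cells (4.07%). No test compared the directions. CD69 also set the SP gates with and without CD69, so a change of Cd69 between them was built in. Of the 18 partners tested, 2 were called higher and 2 lower, 0 and 2, and 2 and 2 at the same steps of the CD4 branch, 3 and 3 into CD8 SP CD69+ cells, and 0 from CD69+ to CD69- CD8 SP cells. The 2 of 18 into CD4 SP CD69+ cells were a share close to that over all genes. Between mature CD4 and CD8 SP cells, where 14.3% of all genes were called, 6 of 23 TCR response genes were higher in CD4 SP cells, among them Dusp5 (2.03), Itm2a (1.71), Cd28 (1.67), Izumo1r (1.51) and Gata3 (1.31). Of 18 partners, Fyn (0.34) was higher and Csnk2b (−0.34) lower, a share no larger than that over all genes.

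The main question was whether MHCII- and MHCI-specific thymocytes differ in the members within the same protein gates. In DP CD69- cells the CD4-fated and CD8-fated mice overlapped. Cd5 RNA was 302 and 365 CPM in AND, 269 and 456 in MHCI-/- and 201 and 136 CPM in OT-II mice, against 436 and 267 in F5, 179 and 229 in MHCII-/- and 266 and 216 CPM in OT-I mice. The CD4-fated mouse was higher in 3 of 6 pairs of 1 family. Here and below a pair joins mice of a family with the same number, which outside the AND and F5 family is a match by number only. The mean of the family contrasts was 0.07 ± 0.17 for Cd5 (17 mice in 8 groups, adjusted p = 1, 0.253% of 11066 genes called) and 0.04 ± 0.15 for Cd6. Cd6 RNA spanned 156 to 226 CPM in the CD4-fated and 133 to 264 CPM in the CD8-fated mice. CD5 protein had −0.46 ± 0.22 (adjusted p = 0.258, 2.7% of antibodies called).

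In DP CD69+ cells the difference in Cd5 RNA was toward the CD4-fated mice but did not pass. Cd5 RNA was 423 and 516 CPM in AND against 296 and 428 in F5 mice, 690 and 807 in MHCI-/- against 415 and 372 in MHCII-/- mice, and 358 and 277 in OT-II against 296 and 342 CPM in OT-I mice. The MHC-deficient genotypes did not overlap, with 1.66- to 2.17-fold between same-numbered mice, and the AND and F5 mice and the OT mice did. The mean contrast was 0.40 ± 0.15 (adjusted p = 0.411, 0.736% of 9109 genes called), with 5 of 6 pairs higher in the CD4-fated mouse, and F5 mice had only 28 and 31 cells in this gate. With every gate threshold lowered, which took in more cells, it was 0.53 (adjusted p = 0.0404). Cd6 RNA had 0.16 ± 0.17 (adjusted p = 0.897) and CD5 protein −0.15 ± 0.23 (adjusted p = 0.686, 4.5% of antibodies called). The protein value rested on the AND mice, since it was −0.47 without AND mouse 1 (adjusted p = 0.0131, lower in CD4-fated mice) and 0.041 without AND mouse 2.

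The signaled DP-like genes (Egr1, Egr2, Cd69, Itm2a and Nab2) also differed between genotypes in this gate. They summed to 3367 to 3650 CPM in MHCI-/-, 1675 to 1677 in MHCII-/-, 2350 to 5181 in AND, 1479 to 1519 in F5, 809 to 1197 in OT-II and 932.6 to 1322 CPM in OT-I mice, with 5 of 5 above 0 in every mouse. The order was not that of Cd5, since the highest sum was in an AND mouse and the highest Cd5 in MHCI-/- mice. The make-up of the gate differed as well. CD8 SP-like RNA clusters held 49.9% and 49.1% of its cells in MHCII-/-, 82.1% and 64.5% in F5 and 50% and 0.345% in OT-I mice. They held 4.38% and 6.80% in MHCI-/-, 2.5% and 3.48% in AND and 1.22% and 0% in OT-II mice. These clusters were not integrated across lanes. The part of these genes and clusters in the Cd5 difference was not tested. Of the TCR response genes only Gata3 was called (0.95, higher in CD4-fated mice), and of the partners none was, in a comparison with medians of 0.06 and −0.04 against 0.02 over all genes.

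The difference passed the test in the CD4+CD8lo gate. Cd5 RNA was 212 and 355 CPM in AND, 402 and 473 in MHCI-/- and 248 and 278 CPM in OT-II mice, and 122 and 102 in MHCII-/- and 140 and 147 CPM in OT-I mice. F5 mice had 8 and 16 cells there and were left out below the minimum of 20. All 6 CD4-fated mice lay above all 4 CD8-fated mice, with 1.78- to 4.64-fold between same-numbered mice of a family. The wild-type mice held 331, 293, 304, 352 and 247 CPM, within the range of the CD4-fated mice. The mean contrast of the MHC-deficient and OT families was 1.42 ± 0.20 (15 mice, adjusted p = 0.00232), when 0.334% of 7794 genes were called. Without MHCII-/- mouse 2 the call was narrowly lost (1.35, adjusted p = 0.05004), and the log2 fold change stayed between 1.32 and 1.48 over all mice left out in turn.

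Cd6 RNA showed the same order in this gate. It was 147 and 141 CPM in AND, 175 and 241 in MHCI-/- and 174 and 260 CPM in OT-II mice, against 81.5 and 57.3 in MHCII-/- and 104 and 154 CPM in OT-I mice. The CD4-fated mouse was higher in 4 of 4 same-numbered pairs, by 1.67- to 4.20-fold, but OT-I mouse 2 overlapped with the AND mice. The contrast of 1.15 ± 0.25 missed the threshold (adjusted p = 0.0648) and passed it under DESeq2 (1.17) and with the replicate number as a block (1.14, adjusted p = 0.0151). CD5 protein overlapped between the lineages and between the OT genotypes. It was 2145 and 1866 per 10000 in AND, 2354 and 2276 in MHCI-/-, 1698 and 1866 in OT-II, 1807 and 1768 in MHCII-/- and 1807 and 1773 in OT-I mice, with a contrast of 0.19 ± 0.28 (adjusted p = 0.978, 1.8% of antibodies called). MHCI-/- mice lay above MHCII-/- mice, by 1.30- and 1.29-fold between same-numbered mice.

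By family, MHCI-/- exceeded MHCII-/- mice in Cd5 RNA by 2.03 ± 0.29 in CD4+CD8lo cells (adjusted p = 0.00326, 0.436% of genes called) and in Cd6 RNA by 1.66 ± 0.36 (adjusted p = 0.0509). Without MHCII-/- mouse 1 or 2 the Cd5 values were 2.13 and 1.91 (adjusted p = 0.0817 and 0.151). OT-II against OT-I mice gave 0.81 ± 0.29 for Cd5 (adjusted p = 0.68, 0.128% of genes called) and 0.65 ± 0.35 for Cd6. A replicate block fitted by family, added after seeing the data, gave 0.78 for Cd5 (adjusted p = 0.00772) and 0.67 for Cd6 (adjusted p = 0.0551) in these mice. Against the sorted wild-type mice, Cd5 was lower in MHCII-/- mice (−1.50 ± 0.27, adjusted p = 0.0427, 0.115% of genes called), a call lost without any one of the 3 sorted wild-type, the 2 MHCI-/- or the 2 MHCII-/- mice or OT-II mouse 2, with adjusted p from 0.0620 to 0.727, and also by library size, with lowered gate thresholds and without protein filters. MHCI-/- mice did not differ by this test (0.53 ± 0.25, adjusted p = 1, 0.0385% of genes called). Cd6 had −1.18 ± 0.34 (adjusted p = 0.416) in MHCII-/- and 0.48 in MHCI-/- mice. The test that both families had the same difference gave an unadjusted p of 0.0075 for Cd5 and an adjusted p of 0.557.

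The make-up of this gate differed between the MHC-deficient genotypes. In MHCII-/- mice 74.6% and 75.2% of the CD4+CD8lo cells fell into CD8 SP-like RNA clusters and 6.34% and 4.67% into CD4 SP-like clusters, and in MHCI-/- mice 6.35% and 7.87% were CD8 SP-like and 61.1% and 65.4% CD4 SP-like. The OT mice did not show this in both mice, with 69.7% of OT-I mouse 1 and 0% of OT-I mouse 2 in CD8 SP-like clusters, 87.1% of OT-I mouse 2 in mature SP-like clusters, and 16.4% and 0% of the OT-II mice in CD4 SP-like clusters. Summed CD8 SP-like genes (Cd8a, Cd8b1, Nkg7, Runx3 and Itgae) were 777.3 to 808.8 CPM in MHCII-/-, 840.3 to 904.2 in OT-I, 169.5 to 175.3 in MHCI-/-, 389.8 to 567.6 in OT-II, 308.8 to 538 in AND and 558.2 to 1016 CPM in wild-type mice. Levels within 1 cluster class were taken over all gates and are not those of CD4+CD8lo cells alone. CD4 SP-like cells held 446 and 489 CPM of Cd5 RNA in MHCI-/- and 453 and 428 CPM in MHCII-/- mice, and CD8 SP-like cells held 132 and 138 CPM in MHCI-/- and 122 and 111 CPM in MHCII-/- mice. The gates behind a class differed, since MHCI-/- mice had 3 and 1 cells in the CD8 SP CD69- gate and MHCII-/- mice 368 and 460. The clusters were made from the RNA of 2000 variable genes, with Cd5 and Cd6 left out, and these levels are a description without a test. The part of the make-up in the Cd5 difference was not tested.

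Gamma-delta T-like genes also moved with the genotypes in the CD4+CD8lo gate, with 552.3 to 709.6 CPM in OT-I, 185.7 to 551.7 in AND, 181.2 to 285 in OT-II and at most 56.8 CPM in the MHC-deficient and wild-type mice. B-like genes summed to 51.56 to 66.19 CPM in MHCI-/- and 128.1 to 161.6 CPM in MHCII-/- mice and to 198.9 to 244 CPM in OT-I and 157 to 181.4 CPM in OT-II mice. The part of these markers in the result was not tested. Of the TCR response genes, Itm2a (1.42) and Gata3 (1.31), a factor needed for the CD4 lineage, were called higher in CD4-fated mice, and the median of the list was 0.50 against −0.01 over all genes. In the MHC-deficient family alone Gata3 (2.42), Itm2a (2.34), Cd69 (2.09) and Dusp5 (1.90) were called higher, with a list median of 0.80. The OT family did not show this. For OT-II minus OT-I mice 0 of 23 response genes were called, with a median of −0.036 against −0.023 over all genes. In the mean contrast no partner of CD5 or CD6 was called, and the median of the partners was −0.10.

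**Figure D2:**
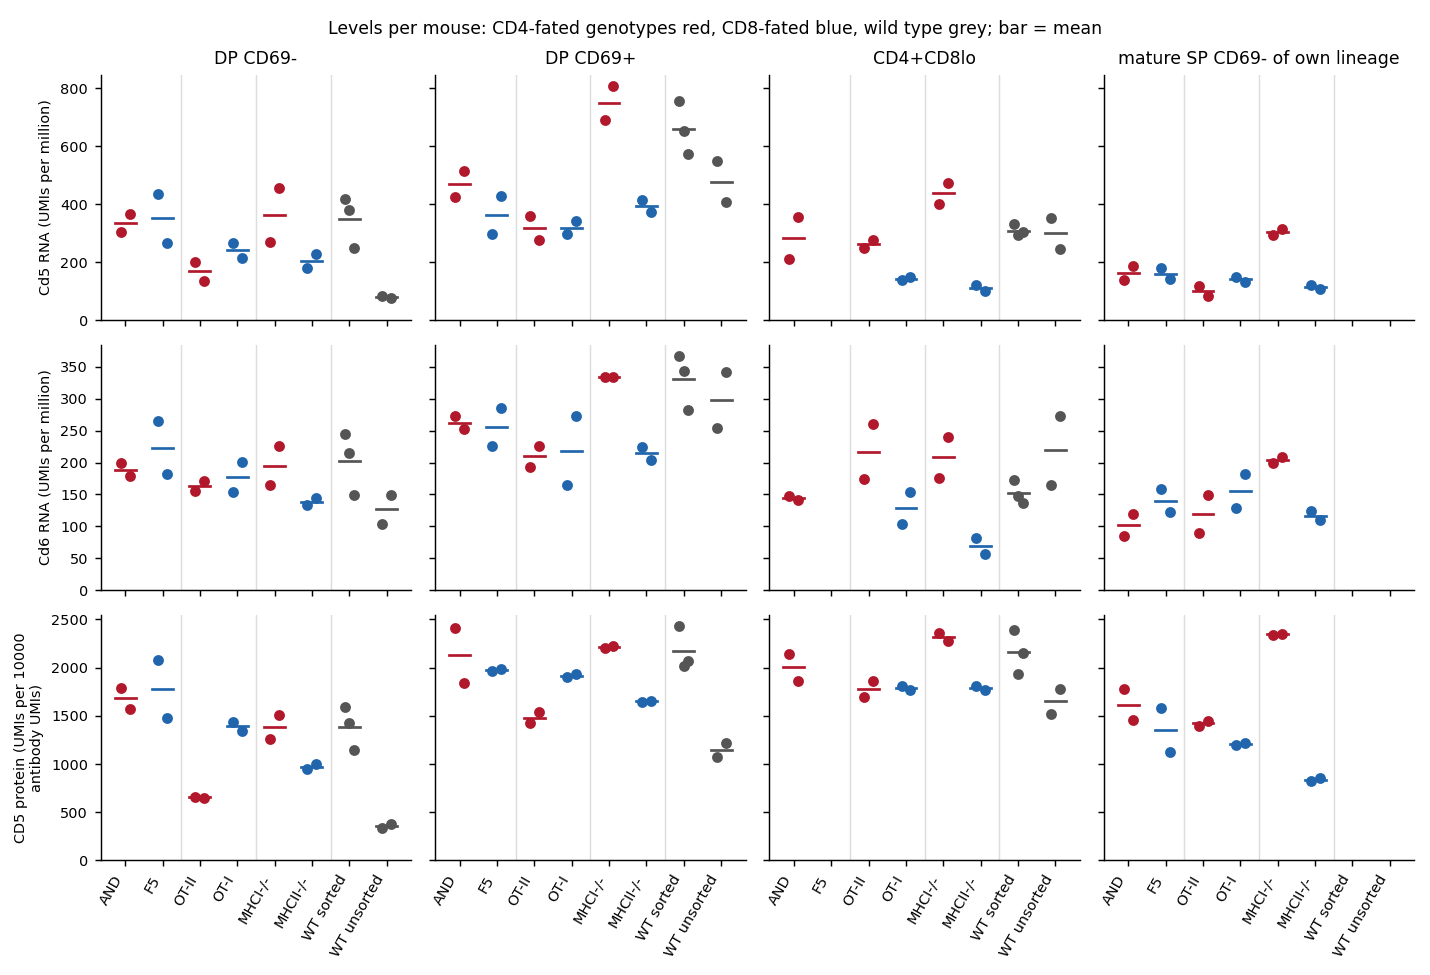
Cd5 RNA (CPM, top row), Cd6 RNA (CPM, middle) and CD5 protein (per 10000 antibody UMIs, bottom) by genotype in DP CD69-, DP CD69+, CD4+CD8lo and own-lineage mature SP CD69- cells, with 1 point per mouse, red for CD4-fated, blue for CD8-fated and grey for wild-type mice, and a bar at the mean. In the CD4+CD8lo column all 6 CD4-fated mice lie above the 4 CD8-fated mice for Cd5 RNA, whereas CD5 protein overlaps.

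The mature cells that each specificity yields were then compared, CD4 SP CD69- cells of CD4-fated mice against CD8 SP CD69- cells of CD8-fated mice. CD5 protein was 1773 and 1455 per 10000 in AND, 2343 and 2349 in MHCI-/- and 1399 and 1444 in OT-II mice, against 1583 and 1121 in F5, 819 and 858 in MHCII-/- and 1200 and 1215 in OT-I mice. The CD4-fated mouse was higher in 6 of 6 same-numbered pairs, by 1.12- to 2.86-fold, but F5 mouse 1 lay above 3 CD4-fated mice. The mean contrast was 0.44 ± 0.31 (12 mice, adjusted p = 0.375, 24.3% of antibodies called) and 0.66 when scaled by library size in place of TMM (adjusted p = 0.00229). Without the sorted MHC-deficient family it turned negative and was not called. The scaling matters for the antibodies, since library size moved the median of all antibodies by 0.26 in this contrast and by 0.92 between AND and F5 mice.

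Cd5 RNA in these mature cells was 139 and 187 CPM in AND, 295 and 315 in MHCI-/- and 117 and 81.9 CPM in OT-II mice, and 179 and 142 in F5, 122 and 109 in MHCII-/- and 150 and 132 CPM in OT-I mice. Both MHCI-/- mice lay above both MHCII-/- mice, both OT-II mice lay below both OT-I mice, and the AND and F5 mice overlapped. The mean contrast was 0.36 ± 0.13 (adjusted p = 0.1, 14.8% of 10251 genes called), with the CD4-fated mouse higher in 3 of 6 pairs. Cd6 RNA was 84.8 and 120 CPM in AND, 200 and 209 in MHCI-/-, 90.06 and 150 in OT-II, 158 and 122 in F5, 125 and 109 in MHCII-/- and 128 and 182 CPM in OT-I mice (0.02 ± 0.17, adjusted p = 0.973).

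The families gave different values. MHCI-/- exceeded MHCII-/- mice in Cd5 RNA (1.41 ± 0.23, adjusted p = 0.00573, 2.91% of genes called) and CD5 protein (1.77 ± 0.56, adjusted p = 0.0119, 22.5% of antibodies called), and Cd6 RNA did not pass (0.81 ± 0.29, adjusted p = 0.189). Both calls were lost when any of these 4 mice was left out, with Cd5 from 1.34 to 1.49 (adjusted p from 0.0549 to 0.142) and CD5 protein from 1.76 to 1.78 (0.0652 to 0.165). AND against F5 mice gave 0.16 ± 0.23 for Cd5 (adjusted p = 0.862, 3.68% of genes called). For CD5 protein it gave −0.48 ± 0.54 (adjusted p = 0.639, 18% of antibodies called), although AND mouse 1 was above F5 mouse 1 and AND mouse 2 above F5 mouse 2 in the share of antibody UMIs (1.12- and 1.30-fold), and 0.26 by library size. The number of these mice marks their experiment, and with the pair as a block the value was −0.60 (adjusted p = 0.430). OT-II against OT-I mice gave −0.50 ± 0.24 for Cd5 (adjusted p = 0.313, 1.86% of genes called) and 0.01 ± 0.54 for CD5 protein (adjusted p = 0.999, 10.8% of antibodies called). The test that the 3 family contrasts were equal gave an unadjusted p of 0.000317 for Cd5 RNA and an adjusted p of 0.057.

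Over all families, in a contrast in which 14.8% of all genes were called, 3 of 23 TCR response genes were called higher in mature CD4-fated cells, Izumo1r (2.14), Itm2a (1.22) and the costimulatory receptor Cd28 (0.99), and 1 lower, Ikzf2 (−1.67), with a median of 0.22 against 9.0e-06 over all genes. Together the response genes called were a share close to that over all genes. Of 19 partners tested, Csnk2b was called lower (−0.49), a share below that over all genes. CD4 and CD8 lineage genes differ between these cells by construction.

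**Figure D3:**
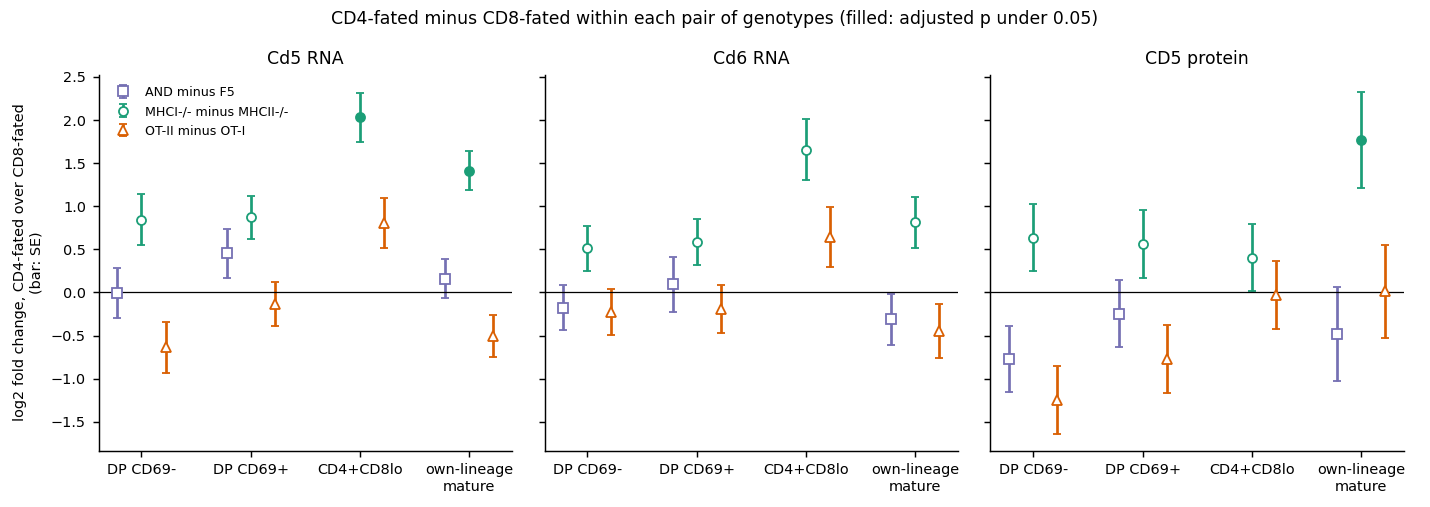
Log2 fold changes (CD4-fated minus CD8-fated genotype, points) with standard errors (bars) of Cd5 RNA, Cd6 RNA and CD5 protein for the AND and F5, MHC-deficient and OT families in DP CD69-, DP CD69+, CD4+CD8lo and own-lineage mature cells, with filled points where the adjusted p was under 0.05. The filled points belong to the MHC-deficient family, Cd5 RNA in CD4+CD8lo cells (2.03) and in own-lineage mature cells (1.41) and CD5 protein in own-lineage mature cells (1.77).

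CD4 SP cells of MHCII-/- mice were scarce and lower in both RNAs. In the CD4 SP CD69- gate the MHCII-/- mice had 22 and 33 cells, with 141 and 113 CPM of Cd5 RNA (35 and 45 UMIs) and 80.7 and 103 CPM of Cd6 RNA. MHCI-/- mice held 295 and 315 CPM of Cd5 and 200 and 209 CPM of Cd6, and the sorted wild-type mice 313, 277 and 277 CPM of Cd5. The MHCII-/- mice lay below all of these, by −1.27 ± 0.26 for Cd5 (adjusted p = 0.0129, 2.61% of 9534 genes called) and −1.15 ± 0.30 for Cd6 (adjusted p = 0.0487) against the sorted wild-type mice. Against MHCI-/- mice, that is MHCI-/- minus MHCII-/-, the values were 1.39 ± 0.27 for Cd5 (adjusted p = 0.0126, 2.22% of genes called) and 1.25 ± 0.31 for Cd6 (adjusted p = 0.0469). The Cd5 calls were lost without either MHCII-/- mouse, with adjusted p of 0.0841 and 0.225 against wild-type and 0.0860 and 0.199 against MHCI-/- mice, the latter also without either MHCI-/- mouse (0.0581 and 0.0774). The Cd6 calls were lost when any of the sorted mice was left out, with adjusted p from 0.0674 to 0.320. With lowered gate thresholds none of these 4 calls held.

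These cells differed in kind as well. NKT-like genes (Zbtb16, Klrb1c, Il2rb, Il4 and Cd160, 5 of 5 above 0) summed to 284.6 to 419.7 CPM in the MHCII-/- and to 16.92 to 23.51 CPM in the MHCI-/- and sorted wild-type mice, with 2 to 5 of them above 0. CD8 SP-like genes summed to 476 to 480.2 against 99.61 to 131.9 CPM. Their part in the result was not tested. Of the TCR response genes, in MHCI-/- minus MHCII-/- mice, Cd69 was called higher (1.56) and Pdcd1 (−3.32) and Ikzf2 (−1.92) lower, and of the partners Ubash3a, which encodes a phosphatase that binds Cbl, was higher (4.05).

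In the DP CD69- gate OT-I thymocytes held more CD5 than unsorted wild-type thymocytes of the same experiment. Cd5 RNA was 266 and 216 CPM in OT-I, 201 and 136 in OT-II and 82.6 and 75.3 CPM in wild-type mice 4 and 5. CD5 protein was 1437 and 1345, 659 and 652, and 340 and 378 per 10000, and neither measure overlapped between these 3 groups. OT-I against wild-type gave 1.75 ± 0.30 for Cd5 RNA (adjusted p = 0.00342, 5.25% of genes called) and 2.47 ± 0.41 for CD5 protein (adjusted p = 0.00129, 5.41% of antibodies called, against a median of −0.36 over all antibodies). The protein call was lost without wild-type mouse 4 (2.37, adjusted p = 0.0507). Cd6 RNA was 154 and 201 in OT-I against 103 and 150 CPM in wild-type mice (0.62 ± 0.26, adjusted p = 0.235). OT-II against wild-type gave 1.12 ± 0.30 for Cd5 (adjusted p = 0.149, 0.56% of genes called), 0.40 for Cd6 and 1.23 ± 0.39 for CD5 protein (adjusted p = 0.152, 2.7% of antibodies called). OT-II minus OT-I gave −0.63 ± 0.29 for Cd5 RNA (adjusted p = 0.342) and −1.25 ± 0.39 for CD5 protein (adjusted p = 0.0683).

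The DP CD69- gate did not hold the same cells in these mice. Mature SP-like genes summed to 411 to 561.5 CPM in OT-I and 97.8 to 222 CPM in wild-type mice. Of the OT-I cells in this gate 14.5% of mouse 1 were CD8 SP-like and 16.0% signaled DP-like, and 26.3% of mouse 2 were mature SP-like. The share of cells in quiescent DP-like clusters was 12.2% and 15.3% in OT-I, 5.52% and 14.2% in OT-II and 73.6% and 72.1% in wild-type mice. The clusters were not integrated across lanes, and 71.0% of the cells of OT-II mouse 1 and 68.6% of those of mouse 2 fell into clusters 12 and 14, which stayed unnamed. Library and kind of cell cannot be told apart in these shares. Within the quiescent DP-like class alone Cd5 RNA was 109 and 120 CPM in OT-I, 103 and 116 in OT-II and 42.4 and 78.3 CPM in these wild-type mice, and CD5 protein was 1034 and 1147, 396 and 462, and 329 and 399 per 10000. OT-I cells of that class were above the wild-type mice in both measures.

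TCR response genes called higher in OT-I DP CD69- cells were Izumo1r (3.98), Itm2a (2.97), Pdcd1 (2.72), Nab2 (2.36), Ikzf2 (1.84) and Tox (1.41), 6 of 23 tested with a median of 0.92 against −0.015 over all genes, of which 5.25% were called, and none was called lower. Of 18 partners, Ptpn6 (1.19) and Fyn (1.02) were called higher and Cbl (−0.83) lower. In mature CD8 SP CD69- cells the OT-I mice held 150 and 132 CPM of Cd5 RNA against 108 and 106 CPM in wild-type mice 4 and 5 (0.41 ± 0.31, adjusted p = 1, 0.0914% of genes called). CD5 protein there was 1200 and 1215 against 872 and 938 per 10000 (0.93 ± 0.25, adjusted p = 0.0511, 1.8% of antibodies called, against a median of −0.39 over all antibodies).

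Within most single mice, cells with more CD5 protein also held more of both RNAs. Cells of a gate were ranked by CD5 share within a lane, and the highest and lowest tertiles were summed per mouse, so that both came from 1 library. In DP CD69- cells the lowest tertile held a median of 136 CPM of Cd5 RNA over 17 mice (36.3 to 376) and the highest tertile 513 CPM (152 to 824). The highest tertile was above in 17 of 17 mice, by 1.39- to 14.2-fold, with a log2 fold change of 2.08 ± 0.22 (mouse as a block, adjusted p = 3.11e-08). Cd6 RNA was higher in 17 of 17 mice, by 1.1- to 3.72-fold (0.84 ± 0.10, adjusted p = 1.12e-07). In this gate 63.6% of 10348 genes were called, so the split also divided the gate in much else.

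The difference was also present in SP cells. In CD4 SP CD69+ cells Cd5 RNA rose from a median of 151 CPM (77.1 to 263) in the lowest to 375 CPM (178 to 602) in the highest tertile, in 14 of 14 mice (1.28 ± 0.09, adjusted p = 3.95e-12, 5.29% of genes called), and Cd6 in 13 of 14 (0.79 ± 0.07, adjusted p = 4.5e-10). In CD4 SP CD69- cells the medians were 124 and 339 CPM, with Cd5 higher in 12 of 13 mice (1.36 ± 0.13, adjusted p = 6.51e-10, 8.81% of genes called) and Cd6 in 11 of 13 (1.11 ± 0.11, adjusted p = 1.48e-09). The exception for Cd5 was OT-I mouse 2, a CD8-fated mouse, at 0.174-fold. In CD8 SP CD69- cells the medians were 80.5 and 178 CPM, with Cd5 higher in 12 of 12 mice (1.11 ± 0.18, adjusted p = 0.00242) and Cd6 in 11 of 12 (0.78 ± 0.13, adjusted p = 0.00314), when 0.773% of 8016 genes were called.

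The split of DP CD69+ cells gave a smaller value for Cd6. Cd5 RNA was 293 CPM (123 to 716) in the lowest and 653 CPM (279 to 957) in the highest tertile, higher in 13 of 14 mice (1.06 ± 0.17, adjusted p = 0.000142, 10.2% of genes called). Cd6 was higher in 10 of 14 mice (0.40 ± 0.11, adjusted p = 0.0234), and this call was lost without wild-type mouse 2, 3 or 4 or MHCII-/- mouse 1 or 2 (adjusted p from 0.0522 to 0.0762), with DESeq2 (0.37) and with a split at the median (0.28). CD4+CD8lo, CD8 SP CD69+ and DN cells were split as well but not tested. In CD4+CD8lo cells Cd5 and Cd6 were each higher in 11 of 13 mice, with median ratios of 1.81 and 1.57 and lowest ratios of 0.708 and 0.705, both in OT-I mouse 2. In CD8 SP CD69+ cells Cd5 was higher in 9 of 9 and Cd6 in 8 of 9 mice, and in DN cells both were higher in 10 of 10.

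**Figure D4:**
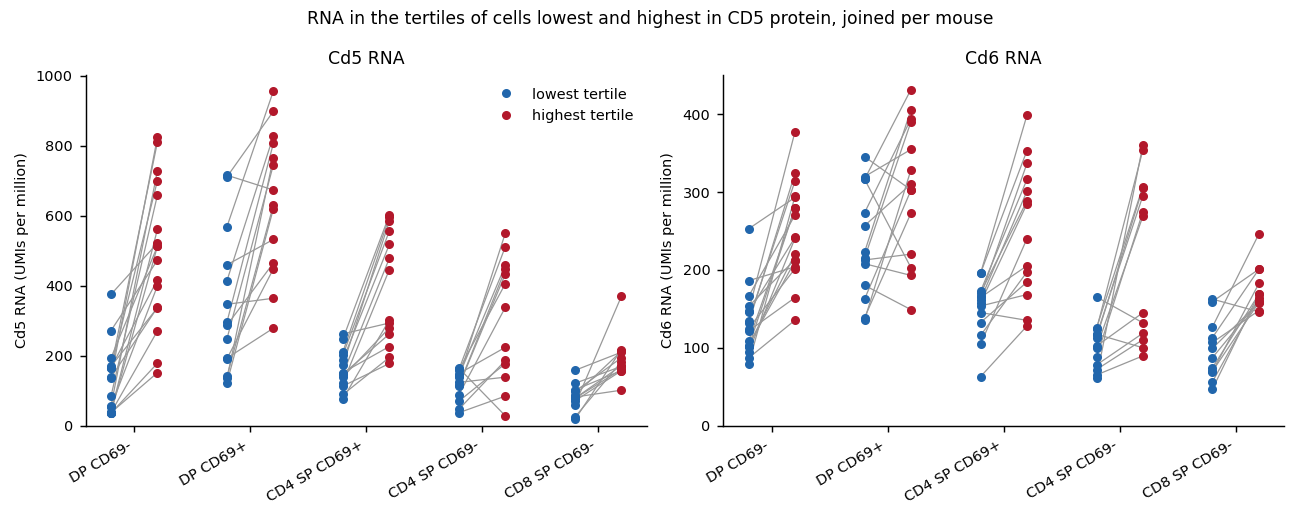
Cd5 RNA and Cd6 RNA (CPM) in the lowest and highest tertile of cells by CD5 protein in 5 gates, with 1 line joining the tertiles of each mouse. The lines rise in 17 of 17 mice for both RNAs in DP CD69- cells, and Cd6 in DP CD69+ cells rises in 10 of 14.

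TCR response genes were called higher in CD5 high cells in each of the 5 gates, most of them in both DP gates and fewer than 12 in each SP gate. In DP CD69- cells, where 63.6% of all genes were called, 22 of 23 response genes were called higher in CD5 high cells and Slamf6 lower (−0.54), led by Itm2a (3.25), Egr2 (3.18), Cd69 (2.57) and Nab2 (2.52), with a median of 1.27 against 0.02 over all genes. Of 18 partners 14 were higher, among them Fyn (1.27), Sh2d2a (0.91), Zap70 (0.66) and Lcp2 (0.66), and 2 lower, Csnk2b (−0.40) and Cbl (−0.15). In DP CD69+ cells, where 10.2% of all genes were called, 13 of 23 response genes were higher, among them Pdcd1 (2.10), Itm2a (1.63), Nr4a3 (1.17) and Izumo1r (1.04), and the 18 partners were divided, with Rasa1 (0.40), Csk (0.36) and Sh2d2a (0.30) higher and Grap2 (−0.53), Pag1 (−0.42) and Lck (−0.39) lower.

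In SP cells, where 5.29% (CD4 SP CD69+), 8.81% (CD4 SP CD69-) and 0.773% (CD8 SP CD69-) of all genes were called, the response genes called were 9 of 23 in CD4 SP CD69+ (Izumo1r 1.01, Pdcd1 0.83, Itm2a 0.74, Gata3 0.56, Id3 0.45), 11 of 23 in CD4 SP CD69- (Tnfrsf9 2.26, Nr4a1 1.00, Itm2a 0.99, Bcl2l11 0.97, Izumo1r 0.96) and 5 of 22 in CD8 SP CD69- cells (Itm2a 0.97, Izumo1r 0.68, Id3 0.67, Ikzf2 0.66, Tox 0.63), as log2 fold changes, all higher in CD5 high cells. The medians of the list were 0.28, 0.39 and 0.37, against −0.0017, −0.021 and −0.0021 over all genes. The CD4 SP gates were mixed. Treg-like cells made up 20.3% to 25.9% of CD4 SP CD69+ and 7.46% to 13.7% of CD4 SP CD69- cells in wild-type mice 1 to 4. In mouse 5 they made up 2.26% and 5.92%. The part of this make-up in the calls was not tested. Of the partners, in shares near or below those over all genes, Grap2 was lower in CD4 SP CD69+ cells (−0.43), Vav1 was higher in CD4 SP CD69- cells (0.27), and none was called in CD8 SP CD69- cells.

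Levels by cell type were taken from RNA clusters named by fixed markers, with Cd5 and Cd6 left out of the clustering. They are a description, and no class was tested against another. Signaled DP-like cells were the highest of the named types in wild-type mice, with 1036 ± 66.5 CPM of Cd5 (SD, n = 4 mice with at least 20 cells) and 459 ± 44.2 CPM of Cd6. Wild-type mouse 5 was missing there, since 0.208% of its DP CD69+ cells were signaled DP-like and 46.15% fell into unnamed cluster 14. That cluster held 613 CPM of Cd5 and 521 CPM of Cd6, the latter above the highest signaled DP-like value of a wild-type mouse (504 CPM). Signaled DP-like cells were followed for Cd5 by negative selection-like (612 ± 153, n = 5), CD4 SP-like (452 ± 53.9, n = 4), Treg-like (345 ± 75.3, n = 5), mature SP-like (299.8 ± 61.0, n = 5) and interferon-like cells (288 ± 25.0, n = 4). The Treg-like class joined a cluster of 1740 cells led by Tnfrsf9, Tnfrsf4 and Tnfrsf18 without Foxp3 and one of 586 cells with Foxp3. The study names Tnfrsf18 and Tnfrsf4 as markers of late negative selection, so this level is not that of regulatory T cells alone. Other names were loose as well. The larger CD4 SP-like cluster (3029 cells) had a mean marker z score of 1.71 for signaled DP-like and 0.766 for CD4 SP-like genes. The largest CD8 SP-like cluster (3823 cells) was named by Runx3 alone. Of CD8 SP-like cells 16.9% and 22.2% lay in the DP CD69+ and DP CD69- gates. Of mature SP-like cells 34.9% and 40.1% lay in the CD4 SP CD69+ and CD69- gates. The classes did not hold the same cells in every mouse, since in wild-type mouse 5 91.8% of CD8 SP CD69- and 42.7% of CD4+CD8lo cells were mature SP-like, against at most 3.70% and 3.85% in mice 1 to 4. Neighbours from CD4 SP-like to interferon-like cells lay within 2 SD of each other, whereas signaled DP-like cells stood clear of the rest. CD8 SP-like (142 ± 21.9, n = 4), cycling-like (85.6 ± 48.1, n = 5), quiescent DP-like (70.2 ± 19.8, n = 5) and DN-like cells (19.9 ± 15.1, n = 2) were lowest.

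Cd6 fell less than Cd5 between these types, from 459 CPM in signaled DP-like to 121 ± 34.0 CPM in quiescent DP-like and 28.7 ± 10.6 CPM in DN-like cells. In quiescent DP-like cells Cd6 exceeded Cd5 in UMIs, and in signaled DP-like cells Cd5 exceeded Cd6. CD5 protein was highest in CD4 SP-like cells (2493 ± 488 per 10000) and similar in Treg-like (2257 ± 427), interferon-like (2235 ± 361), mature SP-like (2187 ± 378), negative selection-like (2184 ± 470) and signaled DP-like cells (2010 ± 504), all within 1 SD. CD8 SP-like cells held 1181 ± 235 and DN-like cells 174 ± 6.04 per 10000. Signaled DP-like cells of AND mice held 556 and 589 CPM of Cd5 and those of OT-I mouse 1 547 CPM, below the 937 to 1078 CPM of the wild-type, the 840 and 974 CPM of the MHCI-/- and the 893 and 851 CPM of the MHCII-/- mice. At least 20 gamma-delta T-like cells were found in the 6 AND, OT-I and OT-II mice, with 38.8 to 103 CPM of Cd5, and at most 11 in any other mouse. This name rests on marker RNA such as Sox13, Cd163l1, Blk and Maf. It does not show a γδ TCR, since the AND mice lacked Rag1.

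**Figure D5:**
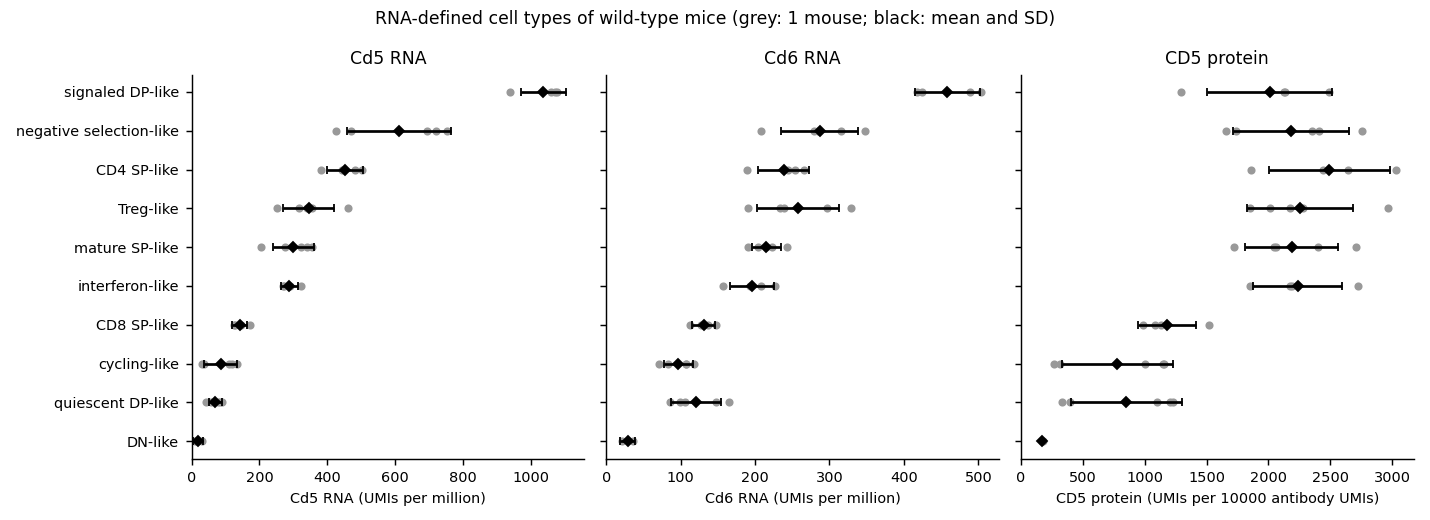
Cd5 RNA (CPM), Cd6 RNA (CPM) and CD5 protein (per 10000 antibody UMIs) in RNA cluster classes of wild-type mice, with grey points for mice and black points and bars for the mean and SD. Signaled DP-like cells are the highest of the named classes for both RNAs (1036 and 459 CPM), whereas CD5 protein is level among the signaled and CD4 lineage classes.

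The spread of CD5 protein between SP cells of the fitting lineage was narrower in TCRtg than in other mice. The SD over cells of the log2 CD5 share was 0.39 and 0.42 in CD4 SP CD69- cells of AND mice and 0.62 and 0.51 in OT-II mice, against 0.74 and 0.72 in MHCI-/- mice and 0.75, 0.79, 0.74, 0.87 and 0.87 in wild-type mice 1 to 5. In CD8 SP CD69- cells it was 0.41 and 0.53 in F5 and 0.48 and 0.53 in OT-I mice, against 0.79 and 0.82 in MHCII-/- and 0.80, 0.86, 0.78, 0.94 and 0.93 in wild-type mice. These TCRtg mice did not overlap with the mice named beside them in either gate. The few CD4 SP CD69- cells of the other lineage did overlap, with 0.49 and 0.70 in MHCII-/- and 0.86 and 0.60 in OT-I mice. In CD4 SP CD69+ cells the SD was 0.31 and 0.34 in AND and 0.37 and 0.39 in OT-II mice, against 0.53 to 0.54 in MHCI-/- and 0.50 to 0.70 in wild-type mice. In earlier gates the genotypes differed in order. AND mice had SDs of 0.76 to 0.89 in DP CD69-, 0.32 to 0.46 in DP CD69+ and 0.43 to 0.71 in CD4+CD8lo cells. The CD8-fated TCRtg mice had SDs of 0.30 and 0.41 (F5) and 0.50 in both mice (OT-I) in DP CD69+ cells, below the 0.74 and 0.76 of MHCII-/- and the 0.56 to 1.18 of wild-type mice. In DP CD69- cells they had 0.74 to 0.97, below the 1.48 and 1.53 of MHCII-/- mice. The lowest of these, an F5 mouse at 0.74, lay below every wild-type mouse, and others lay among them. OT-II mice had SDs of 1.88 and 1.95 in DP CD69- cells against 0.84 to 1.07 in MHCI-/- and wild-type mice, and of 0.80 in both mice in CD4+CD8lo cells against 0.44 and 0.46 in MHCI-/- and 0.55 to 0.77 in wild-type mice. In DP CD69+ cells they had 0.93 and 1.15, above MHCI-/- (0.45 and 0.46) and sorted wild-type mice (0.56 to 0.64), whereas the unsorted wild-type mice of the same experiment had 1.09 and 1.18. These SDs include counting error, which is larger at low antibody depth, and AND mouse 2 had the lowest depth.

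Over 116 sums of a mouse and gate, Cd5 and Cd6 were each the gene most like the other among 7777 genes with a mean of at least 10 CPM (Pearson r of log2 levels = 0.888). After Cd6, Cd5 was most like Rgs10 (r = 0.860), Cd2 (0.853), Xylt2 (0.845) and Cd28 (0.822), and least like Crip1 (−0.744), Tcrg-C4 (−0.739) and Tcrg-C1 (−0.737). Cd6 was next most like Kcnmb4 (0.764), Gimap6 (0.753), Txk (0.753) and Gpr174 (0.750), and least like Tpi1 (−0.710), Ptges3 (−0.708) and Coro2a (−0.701). The sums share mice, lanes and depth, so these values describe the data set.

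CD5 protein followed Cd5 RNA with r = 0.799 and Cd6 RNA with r = 0.693 over the same sums. Within a gate the relation of Cd5 RNA with its protein was closest across mice in DN (r = 0.940, 16 mice), DP CD69- (0.935, 17 mice) and CD4 SP CD69- cells (0.874, 15 mice). In DN cells the sort also set the mice apart, with 232 to 564.6 per 10000 of CD5 protein in the unsorted and 1189 to 1625 in the sorted mice. The r was 0.793 in CD8 SP CD69- (12 mice), 0.771 in CD4 SP CD69+ (15 mice), 0.446 in CD4+CD8lo (15 mice), 0.349 in DP CD69+ (17 mice) and 0.0699 in CD8 SP CD69+ cells (9 mice). The antibodies most like CD5 were CD4 (r = 0.647), CD11a (0.587), CD69 (0.548), CD150(SLAM) (0.449) and CD278(ICOS) (0.438), of which CD4 and CD69 had also set the gates. The wider panel used for 1 of the experiments had a second CD278(ICOS) clone, and the clone that its feature list gave first was used.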

How the data were processed

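RNA and antibody-tag UMIs were measured in 17 mice. The authors made the deposited counts per barcode with Cell Ranger 3.1.0 (submitters' notes, mm10) and normalised nothing. Barcodes were kept with at most 15% mitochondrial UMIs, at least 200 genes, 1000 to 10000 antibody UMIs and at least 70 antibodies. Doublets were called from simulated pairs (3005 barcodes, 4.17%) and removed. Protein gates were set per experiment, and counts were summed per mouse and gate (at least 20 cells, 98099 to 35852333 RNA UMIs per sum). Sums were tested with edgeR 4.0.16 (TMM, low-count filter, quasi-likelihood test, Benjamini-Hochberg adjustment over all genes or antibodies). The dispersion was fitted as a trend over all genes or antibodies and not for each one alone. DESeq2 1.42.0, other scalings, gates and filters, and leaving out each mouse were alternatives. On simulated data 87 of 100 genes changed by 2 on the log2 scale were recovered in the lineage contrast of 8872 genes, and 57 of 100 changed by 1. The simulated sums were those of the DP CD69+ gate, with a shared profile, a fixed spread and well-counted changed genes. These rates therefore do not give the power in other gates or with differences between families. Clusters (Leiden, resolution 2, leidenalg 0.10.2) were not integrated across lanes. Named genes were the members and, from the lists of partners and TCR response genes, at most 10 called per comparison by size of change. Likeness named the 5 highest and 3 lowest genes. The members and lists were chosen with earlier results of these data known.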

Additional observations from a re-analysis of the deposited data

Results flagged for a closer look

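The equality of the family contrasts was tested with an F test in the edgeR fit for each member. This covered the DP, CD4+CD8lo and CD4 SP gates and own-lineage mature cells, and not the DN and CD8 SP gates. Of 18 such tests 11 had an unadjusted p under 0.05, and 0 had an adjusted p under 0.05 over all genes or antibodies. No genotype held 4 to 10 mice of 1 sort, so mice were not checked for extreme values within a group.

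The unadjusted p for Cd5 RNA was 0.000317 in own-lineage mature cells (adjusted p = 0.057), where MHCI-/- exceeded MHCII-/- mice by 1.41 on the log2 scale and OT-II lay below OT-I mice (−0.50). It was 0.00109 in CD4 SP CD69- (adjusted p = 0.124), 0.0075 in CD4+CD8lo (0.557), 0.00756 in CD4 SP CD69+ (0.339), 0.011 in DP CD69- (0.207) and 0.0373 in DP CD69+ cells (0.585). For Cd6 RNA it was 0.00495 in CD4 SP CD69+ (adjusted p = 0.289), 0.0163 in CD4 SP CD69- (0.436) and 0.0225 in own-lineage mature cells (0.466). For CD5 protein it was 0.0102 in DP CD69- (adjusted p = 0.113), where MHCI-/- minus MHCII-/- gave 0.64 and OT-II minus OT-I −1.25, and 0.0129 in own-lineage mature cells (0.053). The MHC-deficient family was also the sorted family, and the 2 cannot be told apart.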

How the results depend on the processing

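Of 43 tested lineage, stage and tertile results on the members, 21 were called, and 14 of these kept direction and call under every alternative run. Of 36 contrasts between single groups 10 were called, 9 of these lost the call when 1 mouse was left out, and only Cd5 in DP CD69- cells of OT-I minus wild-type mice kept it under every alternative run. Of 32 level values, 30 moved by less than 1 SD between mice. Values are log2 fold changes unless named. The added alternatives (no MHC-deficient family, sorted or unsorted wild-type mice only) were chosen after seeing the data. Causes were not tested. Depth limits the gates with few cells.

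Without the sorted MHC-deficient family the lineage contrast turned negative for Cd5 in DP CD69- (−0.32) and own-lineage mature cells (−0.18), for Cd6 in DP CD69- (−0.20), DP CD69+ (−0.054) and mature cells (−0.36), and for CD5 protein in mature cells (−0.23). None of these was called in either form. Cd5 in DP CD69+ cells passed with lowered gate thresholds (0.53) and in mature cells with raised thresholds (0.46). Cd6 in CD4+CD8lo cells passed under DESeq2 (1.17), no low-count filter (1.1), library size (1.15), lowered thresholds (1.04) and with doublets kept (1.17). Cd6 in mature cells turned under library size (−0.025) and lowered thresholds (−0.058), and CD5 protein under library size became 0.66 in mature and 0.052 in DP CD69+ cells. Among 37 antibody contrasts, library size moved the median of all antibodies by −0.59 to 0.92, and by over 0.1 under either scaling in 24. For RNA the shift was −0.23 to 0.14. In mature cells CD5 protein turned to 0.26 for AND minus F5 under library size, and for OT-II minus OT-I to −0.13 (DESeq2 and its size factors), −0.0060 (doublets kept) and −0.054 (no protein filters). Cd5 in CD8 SP CD69- OT-I minus wild-type cells turned to −0.0025 with raised thresholds.

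The replicate block was fitted because genotypes of a family share numbers. It made Cd6 in CD4+CD8lo cells pass (1.14) and changed no other lineage call. Fitted by family, an alternative added after seeing the data, it made Cd6 for MHCI-/- minus MHCII-/- pass in CD4+CD8lo (1.70) and mature cells (0.82) and Cd5 for OT-II minus OT-I in CD4+CD8lo cells (0.78), and lost no call. Same-numbered mice correlated in their deviations by 0.39 to 0.78 in the OT family, −0.04 to 0.40 in the MHC-deficient and −0.09 to 0.06 in the AND and F5 family. As not every pair was over 0.1, the numbers were not taken to pair the mice outside the AND and F5 family, where they mark the experiment, although the OT mice with the same number deviated together and mouse 2 was the shallower of both OT genotypes.

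In the 2 unsorted wild-type mice Cd6 lost its call from DP CD69+ to CD4+CD8lo (−0.41), from there to CD4 SP CD69+ (0.26) and between mature SP cells (0.44), and turned into CD8 SP CD69+ cells (−0.12). There Cd5 passed into CD8 SP CD69+ (−0.61), and CD5 protein into CD4+CD8lo (0.65) and CD4 SP CD69+ cells (0.33). In the 3 sorted mice Cd6 into CD8 SP CD69+ (0.62) and, in the loss of CD69 on CD8 SP cells, Cd5 (−0.61) and Cd6 (−0.49) passed. With no filter Cd5 passed into CD4 SP CD69+ (0.29), CD4 SP CD69- (−0.30), CD8 SP CD69+ (−0.34) and CD8 SP CD69- (−0.65), and Cd6 into CD8 SP CD69- cells (−0.41). By library size Cd6 lost its call into CD4 SP CD69+ (0.36) and passed into CD8 SP CD69- cells (−0.49). With lowered thresholds Cd6 passed into CD4 SP CD69- (−0.28), CD8 SP CD69+ (0.41) and CD8 SP CD69- cells (−0.41). Over all 17 mice Cd6 passed into CD8 SP CD69+ (0.39) and lost its call between mature SP cells (0.11). CD5 protein into CD8 SP CD69+ cells was lost without protein filters (−0.68). Cd6 by CD5 protein in DP CD69+ cells was lost under DESeq2 (0.37) and when split at the median (0.28). The mature CD4 to CD8 ratio of CD5 protein was 2.57 per other antibodies, and DN-like cells held 236 per 10000 with doublets kept.

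With each mouse left out, the lineage contrast ranged for Cd5 from −0.045 to 0.19 in DP CD69- and from 1.32 to 1.48 in CD4+CD8lo cells. For Cd6 it ranged from −0.032 to 0.13, from 0.96 to 1.33 (passing without wild-type mouse 4 or 5 or OT-I mouse 2) and in mature cells from −0.12 to 0.16. For CD5 protein it ranged from −0.67 to −0.29 in DP CD69- (passing without AND mouse 1), −0.47 to 0.041 in DP CD69+ (also passing without AND mouse 1), −0.013 to 0.32 in CD4+CD8lo and 0.17 to 0.61 in mature cells (passing without AND mouse 2). Stages ranged for Cd5 from −1.0 to −0.77 into CD4+CD8lo cells, for Cd6 from 0.42 to 0.61 into CD4 SP CD69+, 0.14 to 0.43 into CD8 SP CD69+ and −0.48 to −0.38 into CD8 SP CD69- cells (both passing without wild-type mouse 5), and for CD5 protein from −1.01 to −0.78 into CD8 SP CD69+ cells. Cd6 by CD5 protein in DP CD69+ cells ranged from 0.33 to 0.46. Single families that turned were Cd5 (−0.12 to 0.39) and CD5 protein (−1.28 to 0.24) for AND minus F5 in mature cells, CD5 protein for OT-II minus OT-I in mature (−0.23 to 0.30) and CD4+CD8lo cells (−0.38 to 0.28), and Cd6 for OT-I minus wild-type CD8 SP CD69- cells (−0.21 to 0.51).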

Other observations

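In the 3 pairs of unsorted mice of 1 genotype that differed in depth (wild-type mouse 5 against 4, OT-I mouse 2 against 1 and OT-II mouse 2 against 1), Cd6 RNA in CPM was higher in the shallower mouse in 21 of 22 gates, with ratios of 0.916 to 1.66. Cd5 RNA was lower in the shallower mouse in 17 of 22 gates (0.676 to 1.15). The Cd6 ratio lay above the Cd5 ratio in 22 of 22 gates, and the ratio of CD5 protein was 0.908 to 1.17. Each pair is 1 mouse against 1 mouse, and no test was made.

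The DN gate split by the sort. Cd5 RNA there was 140, 124 and 96.4 CPM in the sorted wild-type mice and 22.7 and 19.0 CPM in the unsorted, and CD5 protein was 1625, 1326 and 1189 against 345 and 313 per 10000. In unsorted OT-II mice DN cells held 20.01 and 14.9 CPM of Cd5 and 24.3 and 22.3 CPM of Cd6, which overlapped with the unsorted wild-type mice (22.4 and 36.2 CPM of Cd6).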
